A study of Mus musculus with 19 samples.

Results

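The genes described are 10 transcripts that other work has reported as targets of the microRNA miR-34, *Ccnd1*, *Met*, *Acsl1*, *Acsl4*, *Jag1*, *Notch2*, *Sirt1*, *Ldha*, *Axl* and *Cdk6*. They were taken by gene symbol from the liver count table, which lists 31053 genes, and each of the 10 matched a single Ensembl identifier. In livers injected with AAV-miR-34b/c, *Acsl1*, which encodes the long-chain acyl-CoA synthetase that activates fatty acids, was 1.86-fold lower than in livers injected with AAV-GFP, and it was the only one of the 10 that edgeR called in that comparison, where DESeq2 called 3 and limma-voom 2. *Met* was 1.62-fold lower and *Acsl1* 1.57-fold higher in AAV-GFP livers than in vehicle livers, and *Ldha* was 1.34-fold higher in AAV-miR-34b/c livers than in vehicle livers. The *Ldha* call was near the threshold (edgeR adjusted p = 0.0493). It was kept in 4 of 9 other settings and in 5 of 12 fits without a library. With 6 close pairs of libraries, described below, each summed into 1 sample, edgeR called none of the 10 genes in any comparison. edgeR called none of *Ccnd1*, *Acsl4*, *Jag1*, *Notch2*, *Sirt1*, *Axl* and *Cdk6* in the 3 comparisons, of which *Jag1* could be tested in 2, whereas other tools called *Jag1*, *Acsl4* or *Cdk6* in some of them, as given below.

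The miR-34 family comprises miR-34a, miR-34b and miR-34c. A microRNA pairs through its seed, the bases near its 5′ end, with matching sites that lie mostly in 3′ untranslated regions (3′ UTR), and pairing lowers the stability or the translation of the messenger. miR-34 genes are induced by p53, and the family is best known for restraining cell cycle, Notch, receptor tyrosine kinase and SIRT1 genes in tumor cells. Messenger counts record the effect on RNA level, not on translation.

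RNA came from whole livers of male C57BL/6 mice. The labels give an age of 6 to 8 weeks for the mice used, which is younger than the treatment is long, so it is not the age at which livers were taken. Mice of both TAA groups received rising doses of thioacetamide (TAA), a hepatotoxin that causes fibrosis, for 12 weeks and an adeno-associated vector (AAV) of serotype 8 after week 10, and livers were taken 4 weeks after the vector. The vector carried green fluorescent protein (AAV-GFP, n = 7) or was a mixture of vectors for miR-34b and miR-34c (AAV-miR-34b/c, n = 7), in each case under the TBG promoter, which is active in hepatocytes. Vehicle mice (n = 5) received PBS and no vector is named for them, so TAA and vector cannot be told apart in the comparisons with vehicle, and the TAA groups differed from each other by the vector cargo. The labels call the libraries biological replicates. Mature microRNAs are not polyadenylated and were not measured in these libraries.

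Total counts were 2214073 to 4145454 in vehicle livers, 2463842 to 4383805 in AAV-GFP livers and 2717503 to 5208405 in AAV-miR-34b/c livers. Within groups, 6 pairs of libraries were close to each other, with a biological coefficient of variation of 0.0812 to 0.171, and the remaining 46 pairs had 0.215 to 0.48. The close libraries differed by more than counting noise (chi-square per gene of at least 2.9), which repeat libraries of the same RNA can do as well. They were counted as separate samples because the labels call them biological replicates, but whether they are separate animals was not tested, and the n of each group, the counts of livers and the calls below depend on it. Levels are in CPM (counts scaled to a common library size by TMM), and fold changes and adjusted p-values are from edgeR's quasi-likelihood test with Benjamini-Hochberg adjustment over all genes tested, with a threshold of 0.05. A bulk liver library does not tell fewer cells of a type from less RNA per cell.

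The mature sequences show which microRNAs share a seed, given here in capitals for bases 2 to 8 (RefSeq, GRCm38.p6, 5′ to 3′).
mmu-miR-34b-5p: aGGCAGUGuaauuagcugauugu
mmu-miR-34a-5p: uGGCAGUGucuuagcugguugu
mmu-miR-34b-3p: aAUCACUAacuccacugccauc
mmu-miR-34c-3p: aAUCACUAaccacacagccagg
miR-34b-5p and miR-34a-5p had the same seed, and so did miR-34b-3p and miR-34c-3p. mmu-miR-34b-5p maps to chr9:51103610-51103632 and mmu-miR-34c-3p to chr9:51103044-51103065, both on the minus strand, whereas mmu-miR-34a-5p maps to chr4:150068473-150068494 on the plus strand. miR-34c-5p was not analysed here.

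The DNA complement of the miR-34b-5p seed is CACTGCC. It was searched on the transcript strand in the longest annotated 3′ UTR of each gene (GENCODE, GRCm38, the assembly that the submitters' processing notes call mm10). Of the 10 genes, 8 held it, with 14 matches in all. The windows below show 3′ UTR sites of 7 of these genes, all but *Axl*, 30 bases each with the match in capitals. For genes with several matches the one followed by an adenine or nearest the stop codon is shown.
Acsl1, chr8:46534630-46534659, plus strand: tcgagggcacggaaCACTGCCttacttaca
Acsl4, chrX:142318746-142318775, minus strand: tcccgaagctggaaCACTGCCaactaggtc
Ldha, chr7:46855336-46855365, plus strand: ctgtctctgagacaCACTGCCaactgcagg
Met, chr6:17571886-17571915, plus strand: tccccaacagttctCACTGCCtggcctttg
Jag1, chr2:137081662-137081691, minus strand: tttgccgtagagtaCACTGCCtgccttaag
Notch2, chr3:98149591-98149620, plus strand: gatgaagaagacaaCACTGCCagtcataca
Cdk6, chr5:3522979-3523008, plus strand: agctctgctgccgaCACTGCCaacgctcga
The other 2 genes, *Ccnd1* and *Sirt1*, held only the shorter match ACTGCCA, in which the bases before the last adenine pair with bases 2 to 7 of the microRNA. *Ccnd1* had 1 such match and *Sirt1* had 2, shown here by the first.
Ccnd1, chr7:144930736-144930765, minus strand: ttttacaatgtcagACTGCCAtgttcaagt
Sirt1, chr10:63319840-63319869, minus strand: tcttcaccacaaatACTGCCAagatgtgaa

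Thus 80% of the 10 genes held CACTGCC, beside 17.3% of the 9117 tested protein-coding genes with an annotated 3′ UTR and 14.3% of all 21022 such genes. The genes were listed as miR-34 targets, so this share describes the list and was not tested. Another 40 reported miR-34 targets held the match in 62.5% of cases. *Met*, *Acsl4* and *Notch2* had 2 matches each and *Cdk6* had 4, the latter in a 3′ UTR of 10217 bases, and among the 63 genes with a 3′ UTR of similar length 60.3% held the match. *Ldha* had its match in a 3′ UTR of 486 bases, a length at which 6.97% of 918 genes held it. In *Acsl4*, *Notch2*, *Ldha*, *Axl* and *Cdk6* a match was followed by adenine, the longer form of site. The distance from the stop codon ran from 44 bases for the match in *Axl* to 9370 bases for the farthest in *Cdk6*, and was 77 bases for the nearer match in *Met*. TAGTGAT, the complement of the seed shared by miR-34b-3p and miR-34c-3p, occurred in *Cdk6* alone among the 10 genes and in 8.39% of the tested genes.

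**Figure D1:**
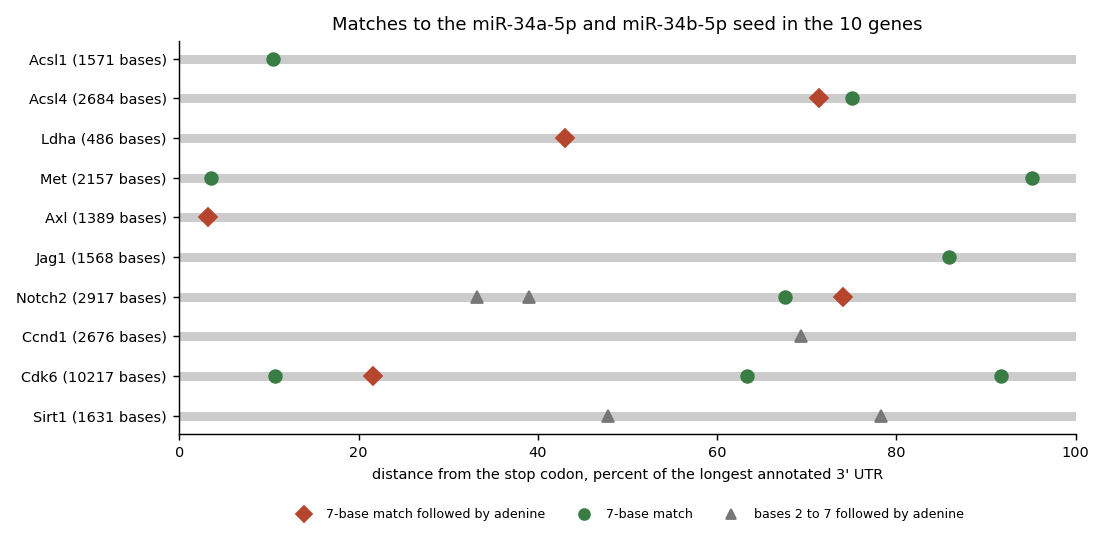
Each gray bar is the longest annotated 3′ UTR of a gene, with the distance from the stop codon on the x axis in percent of its length and the length in bases beside the name. Circles are matches to the 7-base complement of the miR-34b-5p seed, diamonds are such matches followed by adenine, and triangles are matches to bases 2 to 7 followed by adenine. *Ccnd1* and *Sirt1* have triangles only.

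Between the TAA groups, 1 of the 10 genes was called (*Acsl1*, lower), beside 3.36% of the 9252 genes tested, of which 1.95% were higher and 1.42% lower. Between AAV-GFP and vehicle 2 of 10 were called (*Met* lower, *Acsl1* higher), beside 12.7% of 9522, with 7.54% higher and 5.19% lower. In AAV-miR-34b/c livers 1 of 9 tested genes differed from vehicle (*Ldha*, higher), beside 21.9% of 9290, with 12.2% higher and 9.75% lower. *Jag1* had too few counts for the last fit. The libraries of the groups compared did not overlap for 0, 1 (*Met*) and 0 of the 10 genes, beside 1.38%, 4.77% and 7.78% of the genes tested. In the comparison of the TAA groups 7 of the 10 log2 fold changes were below 0, with a median of -0.22, whereas 49.1% of all genes tested were above 0 and their median was -0.007. The 8 genes with CACTGCC had the same median of -0.22, 5 of them below 0, and the values of *Ccnd1* and *Sirt1*, which lack it, had a median of -0.21. Against vehicle the median of the 10 genes was 0.00 in AAV-GFP livers, and that of the 9 tested genes was -0.20 in AAV-miR-34b/c livers. The comparisons share their AAV-GFP or vehicle libraries. With each close pair of libraries summed into 1 sample, which leaves 10, 9 and 7 samples, none of the 10 genes was called by edgeR in any comparison, and 26 of 70 calls of the genes outside the 10 that the rule for named genes picks were kept.

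**Figure D2:**
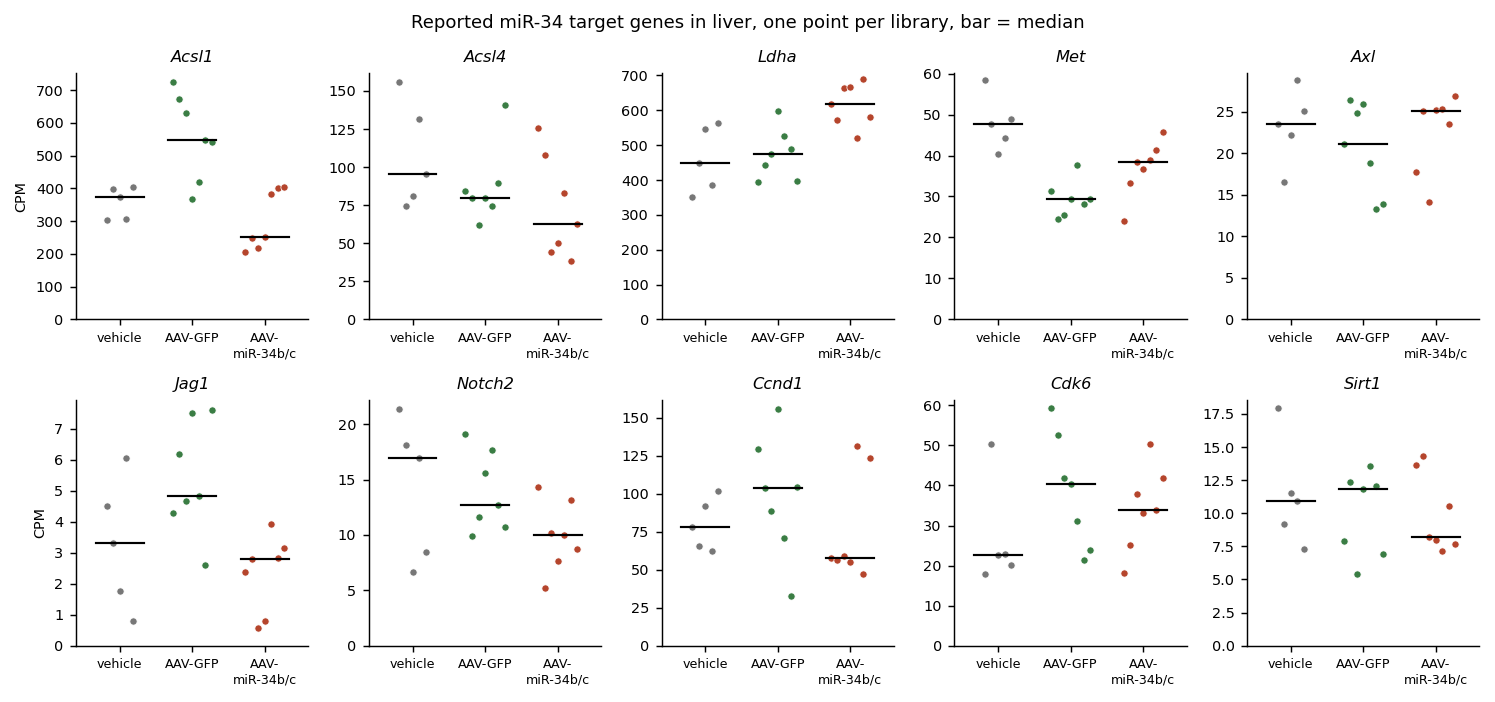
CPM (y axis, linear, from 0) of the 10 genes in each library by group, with a bar at the group median, for 7 livers of each TAA group and 5 vehicle livers. *Met* points of vehicle livers, at 40.3 or more, lie above all AAV-GFP points, which reach 37.6.

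**Figure D3:**
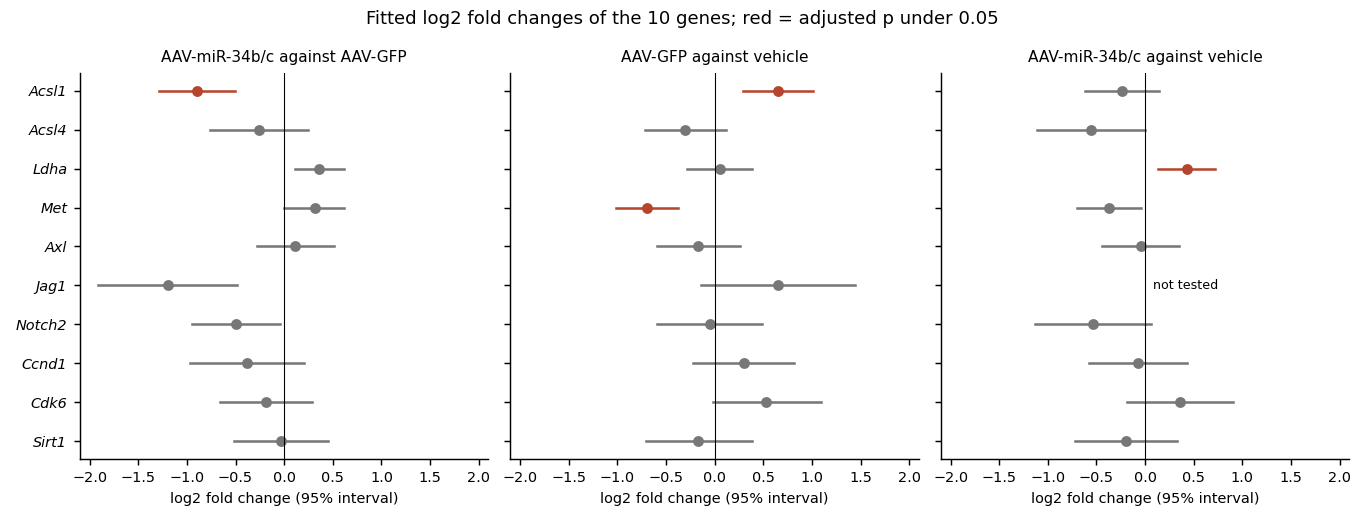
Fitted log2 fold changes of the 10 genes with their 95% intervals in the 3 comparisons, with called genes in red. *Acsl1* is on the left for AAV-miR-34b/c against AAV-GFP and on the right for AAV-GFP against vehicle, and *Jag1* was not tested in the last panel.

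The genes *Acsl1*, *Acsl4* and *Ldha* encode metabolic enzymes. *Acsl1* (ENSMUSG00000018796, chr8:46471037-46536051, plus strand) encodes the main long-chain acyl-CoA synthetase of liver, which couples fatty acids to coenzyme A before oxidation or lipid synthesis. Its levels in vehicle livers were 302.5, 396.7, 374, 305.7 and 405 CPM. In AAV-GFP livers the lowest, median and highest levels were 366, 548 and 726 CPM, and in AAV-miR-34b/c livers they were 206, 253 and 404 CPM. Of the 7 AAV-GFP livers, 6 lay above every vehicle and every AAV-miR-34b/c liver, and library 4, at 366 CPM, lay within both ranges. Of the 7 AAV-miR-34b/c livers, 4 lay below every AAV-GFP and every vehicle liver. These were libraries 1 and 2 and libraries 3 and 4, each a close pair. The level was 301.7 ± 89.95 CPM (SD, n = 7) across AAV-miR-34b/c and 558 ± 131 CPM (SD, n = 7) in AAV-GFP livers, and the log2 fold change was -0.90 (SE 0.20, adjusted p = 0.0145). The mean of vehicle livers was 357 ± 49.4 CPM (SD, n = 5), and AAV-GFP livers were higher by 0.65 on the log2 scale (SE 0.18, adjusted p = 0.025). AAV-miR-34b/c and vehicle livers did not differ beyond the threshold, with a log2 fold change of -0.24 (95% interval -0.62 to 0.14, adjusted p = 0.388). With the close pairs summed, the log2 fold change between the TAA groups was -0.78 (adjusted p = 0.198) and that between AAV-GFP and vehicle was 0.56 (adjusted p = 0.205). Each of the 14 fits that left out a library kept the call between the TAA groups. Between AAV-GFP and vehicle 8 of 12 kept it, and it was lost without vehicle library 1 (adjusted p = 0.0725) or 4 (0.0735) or AAV-GFP library 1 (0.054) or 3 (0.0516).

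*Acsl4* (ENSMUSG00000031278, chrX:142317993-142390535, minus strand) encodes the synthetase that prefers arachidonate and other polyunsaturated fatty acids. Its levels in vehicle livers were 155.8, 74.5, 81.1, 131.5 and 95.3 CPM. In the TAA groups the lowest, median and highest levels were 61.7, 79.9 and 140.9 CPM in AAV-GFP livers and 38.5, 62.8 and 126 CPM in AAV-miR-34b/c livers. The 3 groups overlapped, although 3 of the 7 AAV-miR-34b/c livers lay below every AAV-GFP liver and 4 below every vehicle liver. The log2 fold change was -0.26 between the TAA groups (95% interval -0.76 to 0.24, adjusted p = 0.703), -0.30 for AAV-GFP against vehicle (95% interval -0.72 to 0.12, adjusted p = 0.356) and -0.56 when AAV-miR-34b/c livers were set against vehicle (95% interval -1.11 to 0.00, adjusted p = 0.166). The last value was -0.89 and was called by limma-voom with sample quality weights (adjusted p = 0.00483), and it was called without AAV-miR-34b/c library 1 (-0.74, adjusted p = 0.0414).

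The acyl-CoA synthetases and fatty acid uptake genes, a list of 18 of which 14 were tested, held 1 called gene between the TAA groups (beside 3.36% of all genes tested). It was *Acsl3*, a synthetase of the endoplasmic reticulum and lipid droplets, which changed in the direction opposite to *Acsl1*. It stood at 62.2 to 89.1 CPM in AAV-miR-34b/c livers and at 38.9 to 54.0 CPM in AAV-GFP livers with no overlap, a log2 fold change of 0.72 (SE 0.13, adjusted p = 0.00393, and 0.0796 with the close pairs summed). The median of the list was -0.11. Against vehicle, 4 of the 14 tested genes were called in AAV-GFP livers, all higher, beside 12.7% of all genes tested. The fatty acid transporter *Cd36* led them (48.7 ± 7.90 against 16.2 ± 3.01 CPM, SD, n = 7 and 5, log2 fold change 1.60, adjusted p = 1.73e-05). In AAV-miR-34b/c livers 7 of 14 were called, 3 higher and 4 lower, beside 21.9% of all genes tested. *Acsl3* was higher than in vehicle livers (log2 fold change 0.94, adjusted p = 0.00154), as was the fatty acid transport protein *Slc27a4* (0.94, adjusted p = 0.00739), while the very-long-chain synthetase *Slc27a2* was lower (-0.63, adjusted p = 0.00541).

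Over the 19 libraries, the profiles closest to that of *Acsl1* were those of *Ces2e*, a carboxylesterase, and *Csad*, the cysteine sulfinate decarboxylase of taurine synthesis. The measure was the root mean square difference of centered log2 CPM among 6538 genes with a mean of at least 10 CPM, which was 0.25 for *Ces2e* and 0.29 for *Csad* where *Acsl1* itself had an SD of 0.53. *Ces2e* stood at 156.1 to 216.1 CPM in AAV-GFP livers and at 76.8 to 120.8 CPM in AAV-miR-34b/c livers, without overlap, and at 113.6 to 182.2 CPM in vehicle livers. *Csad* stood at 502.5 to 1076 CPM in AAV-GFP livers, 379.7 to 742.4 CPM in AAV-miR-34b/c livers and 487.6 to 709.7 CPM in vehicle livers. Both genes were picked for their likeness to *Acsl1* in these same libraries, so their group differences follow from that choice and are given as a description.

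**Figure D4:**
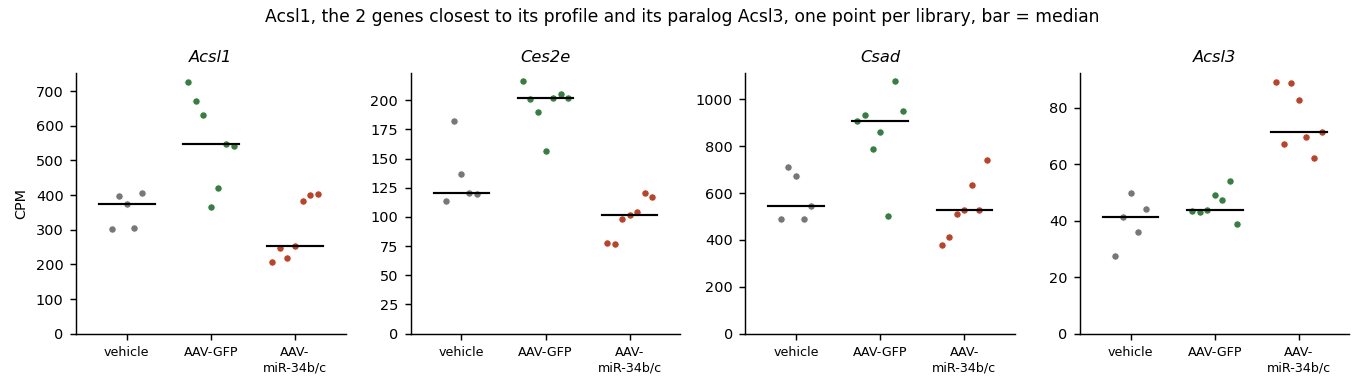
CPM (y axis, linear, from 0) of *Acsl1*, of the 2 genes closest to it over the 19 libraries and of its paralog *Acsl3* in each library, with a bar at the group median. *Ces2e* and *Csad* have their highest medians in AAV-GFP livers, at 201.6 and 907 CPM, and *Acsl3* has its highest in AAV-miR-34b/c livers, at 71.5 CPM.

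*Ldha* (ENSMUSG00000063229, chr7:46841475-46855627, plus strand) encodes the lactate dehydrogenase subunit that favors conversion of pyruvate to lactate. Its levels in vehicle livers were 351.6, 448.7, 546.2, 386.4 and 564 CPM. In AAV-GFP livers the lowest, median and highest were 393.3, 474.3 and 598.9 CPM, and in AAV-miR-34b/c livers 520.3, 619.3 and 689.6 CPM. Of the 7 AAV-miR-34b/c livers, 6 lay above every vehicle liver and 4 above every AAV-GFP liver. The mean was 616 ± 61.1 CPM (SD, n = 7) across AAV-miR-34b/c livers and 459 ± 94.3 CPM (SD, n = 5) in vehicle livers, a log2 fold change of 0.43 (SE 0.15, adjusted p = 0.0493). This adjusted p ranged from 0.0127 to 0.221 over 9 other settings, of which 4 kept the call, and 5 of 12 fits without a library kept it, the call being lost without vehicle library 1, 2 or 4 or AAV-miR-34b/c library 3, 4, 6 or 7 (adjusted p up to 0.143). Between the TAA groups the log2 fold change was 0.36 (95% interval 0.11 to 0.62, adjusted p = 0.15, and 0.0457 in DESeq2), and between AAV-GFP and vehicle it was 0.05 (95% interval -0.28 to 0.38, adjusted p = 0.869).

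None of the 15 tested lactate and glycolysis genes, of a list of 21, was called by edgeR between the TAA groups, where 2 had an unadjusted p under 0.05, DESeq2 called 0 and limma-voom called 1. Against vehicle, 3 of 15 were called in AAV-GFP livers and 5 of 15 in AAV-miR-34b/c livers, all higher, beside 12.7% and 21.9% of all genes tested. *Gapdh* gave 1.15 (adjusted p = 0.0122) and 1.79 (adjusted p = 0.000152), and the phosphoglucose isomerase *Gpi1* gave 0.70 in AAV-miR-34b/c livers (adjusted p = 0.00863). *Ldhb*, the paralog that favors the reverse reaction, reached at most 3.15 CPM in any library. The profiles closest to that of *Ldha* were those of *Ctsz*, a lysosomal protease (root mean square difference 0.17), and *Jak1*, a cytokine receptor kinase (0.18), where *Ldha* had an SD of 0.29.

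*Met* and *Axl* encode receptor tyrosine kinases, for hepatocyte growth factor and for GAS6, respectively. *Met* (ENSMUSG00000009376, chr6:17463800-17573980, plus strand) stood at 58.4, 47.8, 40.3, 44.3 and 48.9 CPM in vehicle livers. The lowest, median and highest levels were 24.5, 29.4 and 37.6 CPM in AAV-GFP livers and 23.9, 38.4 and 45.7 CPM in AAV-miR-34b/c livers. Every AAV-GFP liver lay below every vehicle liver, while 5 of 7 AAV-miR-34b/c livers lay below every vehicle liver and 2 lay within the vehicle range. The mean was 29.4 ± 4.31 CPM (SD, n = 7) in AAV-GFP and 47.9 ± 6.72 CPM (SD, n = 5) in vehicle livers, a log2 fold change of -0.69 (SE 0.16, adjusted p = 0.0097). All 12 fits without a library kept this call, and with the close pairs summed the log2 fold change was -0.68 (adjusted p = 0.0761). Between the TAA groups the log2 fold change was 0.31 (95% interval 0.00 to 0.62, adjusted p = 0.358), with 4 of 7 AAV-miR-34b/c livers above every AAV-GFP liver. Against vehicle it was -0.37 in AAV-miR-34b/c livers (95% interval -0.70 to -0.04, adjusted p = 0.117). The profiles closest to that of *Met* were those of *Anapc7*, a subunit of the anaphase-promoting complex (root mean square difference 0.23), and *Aqp11*, an aquaporin (0.25), where *Met* had an SD of 0.36.

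*Axl* (ENSMUSG00000002602, chr7:25757273-25788705, minus strand) stood at 23.5, 16.5, 22.2, 28.8 and 25.1 CPM in vehicle livers. Its lowest, median and highest levels were 13.3, 21.1 and 26.3 CPM in AAV-GFP livers and 14.1, 25.1 and 26.9 CPM in AAV-miR-34b/c livers, so the 3 groups covered nearly the same range. Its log2 fold change was 0.11 between the TAA groups (95% interval -0.28 to 0.51, adjusted p = 0.856), -0.17 for AAV-GFP against vehicle (95% interval -0.59 to 0.26, adjusted p = 0.635) and -0.04 when AAV-miR-34b/c livers were set against vehicle (95% interval -0.44 to 0.35, adjusted p = 0.893). Each of these values took the other sign or 0 under at least 1 other setting. *Gas6*, the ligand of AXL, stood at 8.76 ± 3.28 CPM (SD, n = 5) in vehicle livers, 25.9 ± 6.53 CPM (SD, n = 7) in AAV-GFP livers and 54.3 ± 29.7 CPM (SD, n = 7) across AAV-miR-34b/c livers. Its log2 fold change was 1.54 for AAV-GFP against vehicle (adjusted p = 0.00146) and 2.6 when AAV-miR-34b/c livers were set against vehicle (adjusted p = 0.000625), and 1.05 between the TAA groups (adjusted p = 0.0738).

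Among 14 tested genes of the MET and AXL ligands, relatives and adaptors, edgeR called 0 between the TAA groups (2 with an unadjusted p under 0.05, 1 called by DESeq2, 0 by limma-voom). Against vehicle it called 3 of 14 in AAV-GFP livers, 1 higher and 2 lower, and 3 of 14 in AAV-miR-34b/c livers, 2 higher and 1 lower. The shares called over all genes tested were 12.7% and 21.9%. The lower genes included *Egfr*, the epidermal growth factor receptor, at 440.1 ± 127.3 CPM (SD, n = 7) in AAV-GFP livers and 770.9 ± 158.9 CPM (SD, n = 5) in vehicle livers (log2 fold change -0.80, adjusted p = 0.0152). The adaptor *Grb2* was higher in AAV-miR-34b/c than in vehicle livers (0.80, adjusted p = 0.00153). *Hgf*, the ligand of MET, had group medians of 7.98 CPM in vehicle, 5.53 CPM in AAV-GFP and 6.28 CPM in AAV-miR-34b/c livers.

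*Jag1* and *Notch2* encode a ligand and a receptor of the Notch pathway, which shapes bile ducts and has been tied to liver fibrosis. *Jag1* (ENSMUSG00000027276, chr2:137081456-137116644, minus strand) encodes the ligand. Its levels in vehicle livers were 4.49, 3.29, 1.77, 6.06 and 0.81 CPM. On 2 to 26 counts per library, the lowest, median and highest were 2.6, 4.81 and 7.58 CPM in AAV-GFP livers and 0.56, 2.78 and 3.93 CPM in AAV-miR-34b/c livers. Of the 7 AAV-GFP livers, 6 lay above every AAV-miR-34b/c liver. The log2 fold change between the TAA groups was -1.20 (SE 0.37, 95% interval -1.91 to -0.48), the lowest of the 10 genes, but its adjusted p of 0.0833 missed the threshold. It passed with library-size scaling alone (adjusted p = 0.0348), in DESeq2 (0.0258) and in limma-voom (0.0175), and in none of the 14 fits without a library. *Jag1* passed the count filter in this comparison largely through the AAV-GFP livers (8 to 26 counts, against 2 to 14 in AAV-miR-34b/c livers). These calls are therefore given as a description. AAV-GFP against vehicle gave 0.65 (95% interval -0.14 to 1.44, adjusted p = 0.289). With AAV-miR-34b/c livers set against vehicle, where the filter on low counts left it out, the difference of mean log2 CPM was -0.34 (two-sided exact permutation test, p = 0.479).

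*Notch2* (ENSMUSG00000027878, chr3:98013527-98150361, plus strand) rested on 13 to 81 counts per library. Vehicle livers had 21.4, 18.1, 6.65, 17.0 and 8.48 CPM. The lowest, median and highest levels were 9.95, 12.7 and 19.1 CPM in AAV-GFP livers and 5.17, 10.00 and 14.3 CPM in AAV-miR-34b/c livers. In 3 of 7 AAV-miR-34b/c livers the level was below that of every AAV-GFP liver. The log2 fold change between the TAA groups was -0.49 (95% interval -0.95 to -0.04, adjusted p = 0.318), and it was -0.53 against vehicle (95% interval -1.13 to 0.06, adjusted p = 0.214). AAV-GFP against vehicle gave -0.05 (95% interval -0.59 to 0.49, adjusted p = 0.926), a value whose sign changed under 3 of 9 other settings.

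Of 27 Notch signalling partners, 15 or 16 had enough counts for the test, and edgeR called 0 between the TAA groups (2 with an unadjusted p under 0.05, 0 called by DESeq2, 1 by limma-voom). The median of the 15 genes was -0.11. Against vehicle, 4 of 16 were called in each TAA group, all higher, beside 12.7% (AAV-GFP) and 21.9% (AAV-miR-34b/c) of all genes tested. The medians of the list were 0.49 in AAV-GFP and 0.32 in AAV-miR-34b/c livers, beside -0.009 and 0.016 over all genes tested. *Psen2*, a subunit of the γ-secretase that cleaves Notch, stood at 433.2 ± 75.6 CPM (SD, n = 7) in AAV-GFP livers and 456 ± 148.4 CPM (SD, n = 7) across AAV-miR-34b/c livers against 208 ± 24.8 CPM (SD, n = 5) in vehicle livers (log2 fold changes 1.06, adjusted p = 0.000397, and 1.13, adjusted p = 0.00255). *Rfng*, a fringe glycosyltransferase that modifies Notch receptors, gave 1.37 (adjusted p = 0.0152) and 1.70 (adjusted p = 0.00131), on only 4 to 16 counts in vehicle livers. The called genes *Spp1*, higher in AAV-GFP livers (1.31, adjusted p = 0.00795), and *Sox9*, higher in AAV-miR-34b/c livers (1.4, adjusted p = 0.00223), are also markers of bile duct cells. *Notch1*, the paralog of *Notch2*, had medians of 10.4 CPM in vehicle, 9.31 CPM in AAV-GFP and 7.05 CPM in AAV-miR-34b/c livers.

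*Ccnd1* and *Cdk6* encode cyclin D1 and a kinase it activates at entry into the cell cycle. *Ccnd1* (ENSMUSG00000070348, chr7:144929931-144939925, minus strand) had 78.1, 65.6, 91.8, 62.5 and 101.8 CPM in vehicle livers. Across TAA livers the lowest, median and highest levels were 32.8, 103.5 and 155.8 CPM in AAV-GFP livers and 47.2, 57.4 and 131.4 CPM in AAV-miR-34b/c livers. Of the 7 AAV-miR-34b/c livers, 5 lay below every vehicle liver and 2 above every vehicle liver, and AAV-GFP livers spread on both sides as well. The 2 above, libraries 5 and 7, form a close pair, and so do libraries 1 and 2 and libraries 3 and 4 among those below. Its log2 fold change was -0.39 between the TAA groups (95% interval -0.97 to 0.20, adjusted p = 0.618), 0.30 for AAV-GFP against vehicle (95% interval -0.22 to 0.82, adjusted p = 0.468) and -0.07 when AAV-miR-34b/c livers were set against vehicle (95% interval -0.58 to 0.43, adjusted p = 0.862).

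*Cdk6* (ENSMUSG00000040274, chr5:3341485-3531008, plus strand) had 18.0, 50.4, 22.6, 22.8 and 20.2 CPM in vehicle livers, so that vehicle library 2 stood apart from the other 4. Across TAA livers the lowest, median and highest levels were 21.4, 40.4 and 59.4 CPM in AAV-GFP livers and 18.1, 33.8 and 50.3 CPM in AAV-miR-34b/c livers. Its log2 fold change was -0.18 between the TAA groups (95% interval -0.66 to 0.29, adjusted p = 0.802), 0.53 for AAV-GFP against vehicle (95% interval -0.02 to 1.09, adjusted p = 0.215) and 0.36 when AAV-miR-34b/c livers were set against vehicle (95% interval -0.19 to 0.90, adjusted p = 0.367). Without vehicle library 2, AAV-GFP livers were higher than vehicle livers by 0.90 (adjusted p = 0.0362) and the log2 fold change of AAV-miR-34b/c livers was 0.72 (adjusted p = 0.0506). With all libraries, limma-voom called *Cdk6* in both comparisons with vehicle, at 0.79 (adjusted p = 0.0225) and 0.67 (adjusted p = 0.0204).

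Between the TAA groups 0 of 17 tested genes of the cyclin D and CDK4/6 circuit were called by edgeR (1 with an unadjusted p under 0.05, 0 called by DESeq2 and 0 by limma-voom). Against vehicle, 5 of 19 were called in AAV-GFP livers, 4 higher and 1 lower, and 7 of 17 in AAV-miR-34b/c livers, 4 higher and 3 lower. The shares called over all genes tested were 12.7% and 21.9%. *Cdkn1a*, the p53-induced inhibitor p21 of cyclin-dependent kinases, stood at 6.39 ± 3.77 CPM (SD, n = 5) in vehicle livers, 67.0 ± 49.6 CPM (SD, n = 7) in AAV-GFP livers and 107.7 ± 84.3 CPM (SD, n = 7) across AAV-miR-34b/c livers, with log2 fold changes against vehicle of 3.40 (adjusted p = 0.00024) and 4.09 (adjusted p = 0.00185). The cyclin D1 paralogs were called in both TAA groups, *Ccnd2* at 0.90 (adjusted p = 0.0109) and 0.65 (adjusted p = 0.0258) and *Ccnd3* at 0.88 (adjusted p = 0.014) and 1.13 (adjusted p = 0.00307), and their difference from *Ccnd1* was not tested. *Top2a*, a topoisomerase of dividing cells, was higher in AAV-GFP (2.36, adjusted p = 0.00499) and AAV-miR-34b/c livers (1.92, adjusted p = 0.00234), and *Ccne2*, cyclin E2, was lower (-1.23, adjusted p = 0.0126, and -1.57, adjusted p = 0.0061). *Top2a* had 3 to 14 counts in vehicle livers and passed the count filter only through the TAA livers. *Ccne2* passed it only through the vehicle livers (12 to 40 counts), with 7 to 18 counts in AAV-GFP and 1 to 13 in AAV-miR-34b/c livers. Both calls are therefore given as a description.

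*Sirt1* (ENSMUSG00000020063, chr10:63319005-63381704, minus strand) encodes a NAD-dependent deacetylase. Its levels in vehicle livers were 18.0, 9.22, 11.53, 10.9 and 7.27 CPM. The lowest, median and highest were 5.43, 11.8 and 13.6 CPM in AAV-GFP livers and 7.14, 8.18 and 14.3 CPM in AAV-miR-34b/c livers, with the 3 groups overlapping almost fully. The log2 fold change was -0.04 between the TAA groups (95% interval -0.52 to 0.45, adjusted p = 0.97), and its sign changed in 8 of 14 fits without a library. It was -0.17 for AAV-GFP (95% interval -0.71 to 0.38, adjusted p = 0.722) and -0.20 when AAV-miR-34b/c livers were set against vehicle (95% interval -0.72 to 0.33, adjusted p = 0.629).

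The sirtuins and NAD synthesis genes held 1 called gene of 12 tested between the TAA groups (beside 3.36% of all genes tested). It was *Nnmt*, the methyltransferase that consumes nicotinamide, at 213.4 to 820.1 CPM in AAV-miR-34b/c and 98.9 to 276.9 CPM in AAV-GFP livers (log2 fold change 1.28, SE 0.31, adjusted p = 0.0276), a call lost with the close pairs summed (1.08, adjusted p = 0.198) and without AAV-GFP library 1, 2 or 3 or AAV-miR-34b/c library 1 or 2 (adjusted p up to 0.0683). *Nnmt* was lower in AAV-GFP than in vehicle livers (-1.06, adjusted p = 0.00638). *Nampt*, the enzyme that salvages nicotinamide and another reported miR-34 target, stood at 123.9 ± 34 CPM (SD, n = 5) in vehicle livers, 59.7 ± 26.3 CPM (SD, n = 7) in AAV-GFP livers and 43.4 ± 17.9 CPM (SD, n = 7) across AAV-miR-34b/c livers. Its log2 fold change against vehicle was -1.05 (adjusted p = 0.00962) and -1.52 (adjusted p = 0.00163), and between the TAA groups it was -0.47 (adjusted p = 0.464). In AAV-miR-34b/c livers 6 of 12 genes were called against vehicle, beside 21.9% of all genes tested. Of these, 1 was higher and 5 lower, among them the mitochondrial paralog *Sirt3* (-0.59, adjusted p = 0.0251).

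Another 40 genes have been reported as miR-34 targets. Of the 27 tested between the TAA groups, edgeR called 0 (2 with an unadjusted p under 0.05, 0 called by DESeq2, 1 by limma-voom), and their median log2 fold change was -0.05. Against vehicle, 8 of 29 were called in AAV-GFP livers, 4 higher and 4 lower, and 7 of 26 in AAV-miR-34b/c livers, 2 higher and 5 lower. The shares called over all genes tested were 12.7% and 21.9%. *Hnf4a*, a transcription factor that maintains hepatocytes, was higher in both (0.86, adjusted p = 0.00538, and 1.21, adjusted p = 0.0001). *Rras*, a small GTPase, was higher in both as well (0.85, adjusted p = 0.0218, and 1.15, adjusted p = 0.00138). *Nampt* and *Ccne2*, lower in both TAA groups, belong to this list as well.

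**Figure D5:**
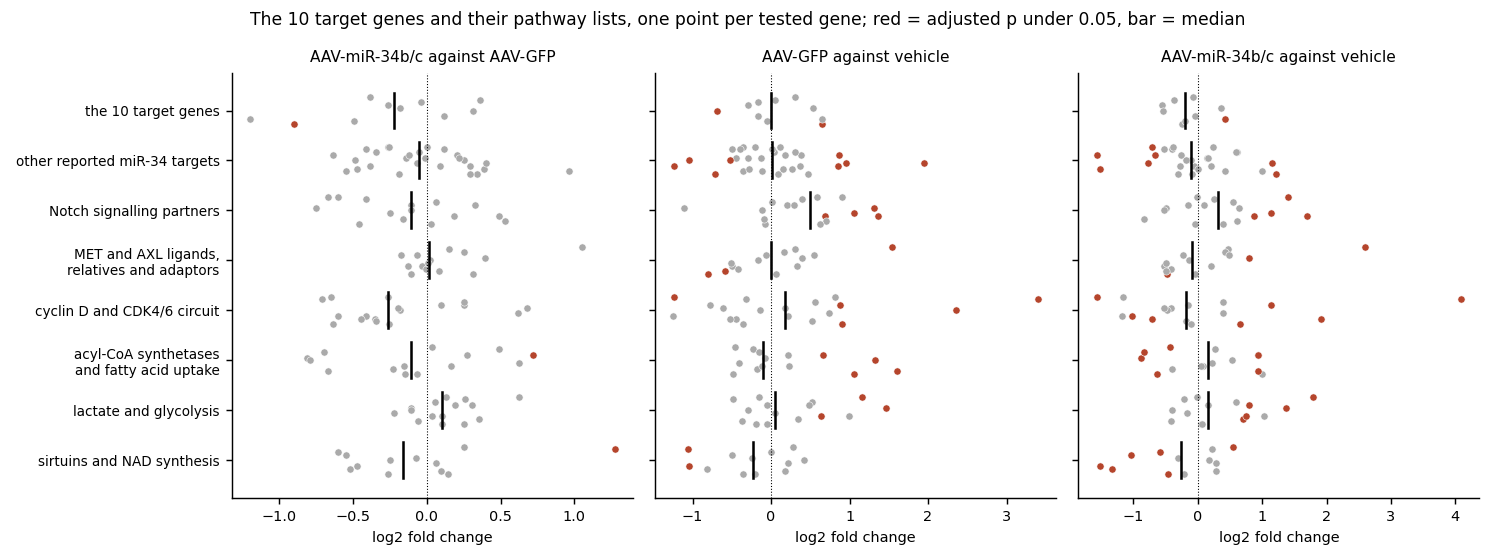
Each point is the fitted log2 fold change (x axis) of a tested gene of the 10 target genes or of a pathway list (rows) in the 3 comparisons, with called genes in red and the list median as a bar. Between the TAA groups, *Acsl1*, *Acsl3* and *Nnmt* are the 3 red points, at -0.90, 0.72 and 1.28.

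Markers of other cell types moved with the groups, and their part in the results above was not tested. Hepatocyte markers (8 genes) summed to 68200 to 83300 CPM in vehicle livers, 66400 to 76000 CPM in AAV-GFP livers and 56300 to 89200 CPM in AAV-miR-34b/c livers, and 0 of 8 were called between the TAA groups (1 with an unadjusted p under 0.05, 0 by DESeq2, 1 by limma-voom). *Alb* alone had group means of 35670 to 41600 CPM. Against vehicle, 1 of 8 was called in AAV-GFP livers (*Serpina1c*, higher, log2 fold change 0.64). In AAV-miR-34b/c livers 2 of 8 were called, *Serpina1c* higher (0.91) and *Cps1* lower (-0.90), beside 21.9% of all genes tested. Neutrophil markers were higher in AAV-miR-34b/c livers, where the 5 genes summed to 61.7 to 1910 CPM, than in AAV-GFP livers, at 14.2 to 72.6 CPM, or vehicle livers, at 15.5 to 80.1 CPM. All 3 tested of these 5 were called higher in AAV-miR-34b/c livers against AAV-GFP and against vehicle (*S100a8* at 309.6 ± 367.6 against 14.9 ± 7.13 CPM between the TAA groups, SD, n = 7 and 7, adjusted p = 0.00243), and *Ly6g* had no count in vehicle livers. *Retnlg*, at 0 to 7 counts in vehicle and 0 to 18 in AAV-GFP livers, passed the count filter only through the AAV-miR-34b/c livers (5 to 169). Its call is therefore given as a description. Between the TAA groups 8 of 9 other settings kept the calls of *S100a8* and *S100a9*, with adjusted p up to 0.107 and 0.158. Stellate cell or myofibroblast markers (10 genes) summed to 87.5 to 137 CPM in AAV-miR-34b/c livers, 151 to 266 CPM in AAV-GFP livers and 84.7 to 147 CPM in vehicle livers, with 2 of 8 tested called lower between the TAA groups (the collagens *Col1a1* and *Col3a1*) and 4 of 9 called higher in AAV-GFP than in vehicle livers. *Lrat* was not called between the TAA groups, with means of 12.1 CPM in AAV-GFP and 13.9 CPM in AAV-miR-34b/c livers. Between AAV-miR-34b/c and vehicle edgeR called 0 of 7 (0 with an unadjusted p under 0.05, 0 by DESeq2, 0 by limma-voom). Macrophage markers (12 genes) summed to 520 to 1010 CPM in vehicle, 444 to 724 in AAV-GFP and 653 to 888 CPM in AAV-miR-34b/c livers. Of 11 tested, 2 were called higher between the TAA groups and 4 lower in AAV-GFP than in vehicle livers. *Adgre1* alone of the 11 differed in AAV-miR-34b/c livers from vehicle (lower, log2 fold change -1.22, adjusted p = 0.0039), beside 21.9% of all genes tested. Its means were 31.0 CPM in vehicle, 15.5 CPM in AAV-GFP and 13.4 CPM in AAV-miR-34b/c livers. The TAA groups did not differ in *Adgre1* beyond the threshold (-0.235, adjusted p = 0.793).

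Endothelial markers (8 genes) summed to 215 to 260 CPM in vehicle livers, 175 to 239 CPM in AAV-GFP livers and 245 to 298 CPM in AAV-miR-34b/c livers. Of the 7 tested, 1 was called higher between the TAA groups (*Lyve1*), beside 3.36% of all genes tested. Between AAV-GFP and vehicle edgeR called 0, beside 12.7% (1 with an unadjusted p under 0.05, 0 by DESeq2, 1 by limma-voom). Between AAV-miR-34b/c and vehicle it called 2 of 7, *Lyve1* higher (log2 fold change 1.46) and *Cdh5* lower (-1.25), beside 21.9%. Cholangiocyte markers (7 genes) summed to 23.1 to 44.8 CPM in vehicle, 60.8 to 105 CPM in AAV-GFP and 54.3 to 125 CPM in AAV-miR-34b/c livers. Against vehicle, 2 of 3 tested were called higher in AAV-GFP livers and 1 of 3 in AAV-miR-34b/c livers, beside 12.7% and 21.9% of all genes tested. *Cftr* had no count in vehicle livers. T or B cell markers (6 genes) summed to at most 5.06 CPM in any library and none could be tested, and *Cd8a* and *Cd79a* had no count in vehicle livers.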

How the data were processed

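RNA from 19 mouse livers was sequenced with QuantSeq 3′ mRNA libraries, single-end at 100 bases. The authors deposited raw read counts per gene, aligned with STAR to mm10 per the labels. The annotation release, strand setting and handling of duplicates are not given in the sources used here. The table has 31053 genes, of which 13985 had no count. Replicates are the libraries the labels number within each group.

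Each comparison used edgeR 4.0.16 (R 4.3.3) on the counts of its 2 groups, with TMM scaling, filterByExpr (minimum count 10, minimum total 15), the quasi-likelihood test and Benjamini-Hochberg adjustment (threshold 0.05). Log2 CPM used a prior count of 2. *Jag1*, left out by the filter in 1 comparison, had an exact permutation test there. On data simulated for the comparison of the TAA groups the fit was checked before use. Seed matches were searched in the longest annotated 3′ UTR. All 10 genes are named, and from each other list up to 3 called genes per comparison with the smallest adjusted p, up to 1 partner of a member, and the 2 genes closest in profile to each called member. The members and lists were chosen with earlier results of these data known. Alternatives were other filters and scalings, DESeq2 1.42.0, limma-voom (limma 3.58.1) with sample quality weights, a fit of all 3 groups, a replicate block, close pairs summed and each library left out. The standard error of a member's log2 fold change was 0.13 to 0.40, which with the total counts sets the precision. The 95% intervals are the log2 fold change ± 1.96 standard errors, a normal approximation without adjustment for the number of genes. They are narrower than the quasi-likelihood test implies, so an interval can end at 0 where the unadjusted p is above 0.05. A few items are not reported here.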

Additional observations from a re-analysis of the deposited data

Results flagged for a closer look

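In 33 groups of values examined (the log2 CPM of each of the 10 genes and the total count, in 3 groups), 2 held a library whose gap to its nearest neighbour exceeded the 95% critical value of Dixon's test, where chance gives about 1.65. The log2 CPM of *Cdk6* in vehicle library 2 was 5.67, the next value in that group was 4.55, and the gap took 0.772 of the range. The total count of AAV-GFP library 5 was 4383805, the next was 3239809, and the gap took 0.596 of the range.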

How the results depend on the processing

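Of the 10 genes, the number called between the TAA groups was 1, and it was 2 with library size only, 3 in DESeq2, 2 in limma-voom, 0 with the replicate block and 0 with close pairs summed (1 to 1 without a library). For AAV-GFP against vehicle it was 2, and 3 in limma-voom, 4 with the block and 0 with close pairs summed (1 to 3 without a library). For AAV-miR-34b/c against vehicle it was 1, and 0 with no filter, DESeq2 size factors, library size only, the block or close pairs summed, and 3 in limma-voom (0 to 2 without a library). Over all genes the calls between the TAA groups were 311, and 624 with library size only, 542 in DESeq2, 813 in limma-voom, 142 with the block and 87 with close pairs summed (209 to 344 without a library). For AAV-GFP against vehicle they were 1212, and 2687 in limma-voom, 3136 with the block and 227 with close pairs summed (689 to 1859). For AAV-miR-34b/c against vehicle they were 2037, and 3839, 945 and 331 in the same order (1267 to 2695). The cause of these shifts was not tested, except that summing close pairs leaves fewer samples.

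Library size only moved the median log2 fold change of all genes to -0.20, 0.05 and -0.13 in the 3 comparisons, and the share of calls that were higher from 57.9% to 19.1%, from 59.2% to 67.4% and from 55.5% to 31.1%. With the replicate block *Acsl1* had an adjusted p of 0.081 between the TAA groups and *Ldha* of 0.155 against vehicle, while *Acsl4* (-0.45, 0.0396) and *Cdk6* (0.81, 0.00623) were called for AAV-GFP against vehicle. Deviations of log2 CPM from the group means correlated at -0.284 to 0.277 between libraries with the same number in 2 groups. Libraries with different numbers were not compared in this way, so whether the numbers pair the libraries was not tested.

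The sign changed for *Axl* between the TAA groups (-0.081 with library size only, -0.005 in limma-voom), for AAV-GFP against vehicle (0.026 with the block) and in AAV-miR-34b/c livers against vehicle (0.00 with close pairs summed). It changed for *Notch2* in AAV-GFP against vehicle, at 0.012 with library size only, 0.09 in limma-voom and 0.10 with the block. Without a library, values that changed sign ran from -0.141 to 0.055 (*Sirt1*, TAA groups), -0.215 to 0.137 (*Notch2*), -0.285 to 0.064 (*Sirt1*) and -0.019 to 0.141 (*Ldha*) for AAV-GFP against vehicle, and -0.262 to 0.023 (*Ccnd1*), -0.32 to 0.029 (*Sirt1*) and -0.149 to 0.051 (*Axl*) in AAV-miR-34b/c livers against vehicle. None of these was called. The number of genes with a seed match was 8 in the longest 3′ UTR or in any transcript. *Jag1*, at 2 to 26 counts per library, had the widest intervals between the TAA groups.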
